A study of Caenorhabditis elegans with 2 samples.

Results

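The 10 genes described here belong to the Wnt signalling pathway or to the Hox family of Caenorhabditis elegans, and the question was where the transcription factor EOR-1 gave candidate binding sites at them. They were chosen by name: the Wnt ligands mom-2 and egl-20, the Frizzled receptor lin-17, the Dishevelled protein gene mig-5, the β-catenin gene bar-1, the TCF gene pop-1, and the Hox genes ceh-13, lin-39, mab-5 and egl-5. They are 10 of 19973 protein-coding genes on the 6 chromosomes. EOR-1 was measured by chromatin immunoprecipitation and sequencing (ChIP-seq) in whole L3 larvae of strain OP81, of mixed sex, which carry the transgene wgIs81 with eGFP-tagged eor-1 in an unc-119(ed3) III background. There was 1 group with 2 biological replicates, and both replicates carried the transgene and the unc-119 allele. The tagged protein came from a transgene and the chromatin from all tissues of the animal, so a site used in few cells is diluted by the others. The authors called peaks in each replicate, in the pooled data of both, and kept a short list by the irreproducible discovery rate (IDR), which compares peak ranks between replicates.

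Wnt ligands are secreted with the help of the acyltransferase Porcupine and bind Frizzled receptors, which act through Dishevelled. This signal protects β-catenin from a destruction complex built on Axin, APC, GSK3 and casein kinase 1, and β-catenin then acts with the TCF factor POP-1 on target genes. In C. elegans larvae the β-catenin BAR-1 keeps lin-39 expressed in the vulval precursor cells and, after the EGL-20 signal, turns on mab-5 in the left Q neuroblast lineage, so Hox genes are known outputs of the pathway. EOR-1 is a zinc finger protein related to human PLZF, and genetic work has placed it with EOR-2 in both Ras and Wnt signalling.

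A gene was given a peak when the peak's summit lay inside the gene or within 5000 bp of one of its transcript starts. The pooled list held 6708 peaks with signal values of 2.05 to 113.84, and it includes background entries besides peaks, so its weaker entries are candidates. The replicate 1 list held 2488 peaks, the replicate 2 list 2610 and the thresholded list 33. Signal is the authors' own value for each peak and was used to rank peaks within 1 list, with rank 1 the strongest. The depth of sequencing is unknown, since the lists hold no read counts, and the control data were not analysed here. With 1 group and 2 replicates there is no contrast between conditions to test, and the 10 genes are set beside all protein-coding genes as a description. Shares of the 10 genes and of the wider list have an exact 95% interval (Clopper-Pearson), which covers counting error only. A count of 0 has a limit of 3 counts instead, and shares of peaks have no interval.

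Some stretches of reference sequence show what lay under the summits the results turn on. They run 5′ to 3′ on the strand of the gene, extend 100 bp either side of the summit, and end earlier where an untranslated exon began. Capitals mark matches of AGACGCAG on either strand with at most 1 mismatch, an 8-base sequence that came first in an earlier comparison of strong and weak peaks in these data. The first 3 are the strongest peak among the 10 genes, the only one of their peaks found in both replicates, and the only one with the 8-base sequence within 100 bp of the summit. The others are the thresholded peak at the Porcupine gene mom-1 and the peaks at the Hox repressor genes mes-6 and sor-1.
mig-5, II:8185024-8185172, minus strand: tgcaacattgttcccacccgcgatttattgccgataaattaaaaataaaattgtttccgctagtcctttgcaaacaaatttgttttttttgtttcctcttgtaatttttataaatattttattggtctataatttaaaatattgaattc
mom-2, V:8359224-8359424, plus strand: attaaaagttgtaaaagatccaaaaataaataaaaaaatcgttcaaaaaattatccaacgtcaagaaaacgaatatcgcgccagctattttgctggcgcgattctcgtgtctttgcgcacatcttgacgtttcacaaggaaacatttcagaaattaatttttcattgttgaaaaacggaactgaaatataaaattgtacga
lin-39, III:7536647-7536847, minus strand: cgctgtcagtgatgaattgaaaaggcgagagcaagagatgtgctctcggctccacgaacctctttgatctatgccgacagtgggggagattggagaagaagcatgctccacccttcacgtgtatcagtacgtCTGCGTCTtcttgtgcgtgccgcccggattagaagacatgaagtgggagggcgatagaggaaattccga
mom-1, X:6296415-6296615, plus strand: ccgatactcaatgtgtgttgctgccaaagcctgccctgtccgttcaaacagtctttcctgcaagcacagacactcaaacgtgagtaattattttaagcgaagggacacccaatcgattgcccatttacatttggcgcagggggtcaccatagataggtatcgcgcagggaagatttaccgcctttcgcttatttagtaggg
mes-6, IV:8510584-8510784, plus strand: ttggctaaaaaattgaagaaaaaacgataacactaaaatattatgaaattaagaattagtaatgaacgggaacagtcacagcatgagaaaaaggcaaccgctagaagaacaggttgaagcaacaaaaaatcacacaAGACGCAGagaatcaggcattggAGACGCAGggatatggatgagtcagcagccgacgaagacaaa
sor-1, III:8417590-8417790, plus strand: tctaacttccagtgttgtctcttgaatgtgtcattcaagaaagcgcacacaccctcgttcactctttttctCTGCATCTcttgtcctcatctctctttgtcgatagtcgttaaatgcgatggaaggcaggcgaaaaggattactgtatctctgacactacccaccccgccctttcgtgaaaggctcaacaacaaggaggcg

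Of the 10 genes, 5 had at least 1 pooled peak, a share of 50% (18.7 to 81.3%), against 44.9% of all 19973 protein-coding genes. These 5 were mom-2, mig-5, bar-1, pop-1 and lin-39, and no pooled peak was assigned to egl-20, lin-17, ceh-13, mab-5 or egl-5. One of the 1000 strongest pooled peaks lay at 2 of the 10, mig-5 and mom-2, a share of 20% (2.52 to 55.6%), against 10.2% of all genes. A pooled peak with a summit within 200 bp in each of the replicate lists was found at 1 of the 10, mom-2, a share of 10% (0.253 to 44.5%), against 5.60% of all genes. None of the 10 had a thresholded peak, and by the limit of 3 counts that allows up to 30.0%, against 0.350% of all genes. Each of the 4 intervals or limits includes the share of all genes.

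**Figure D1:**
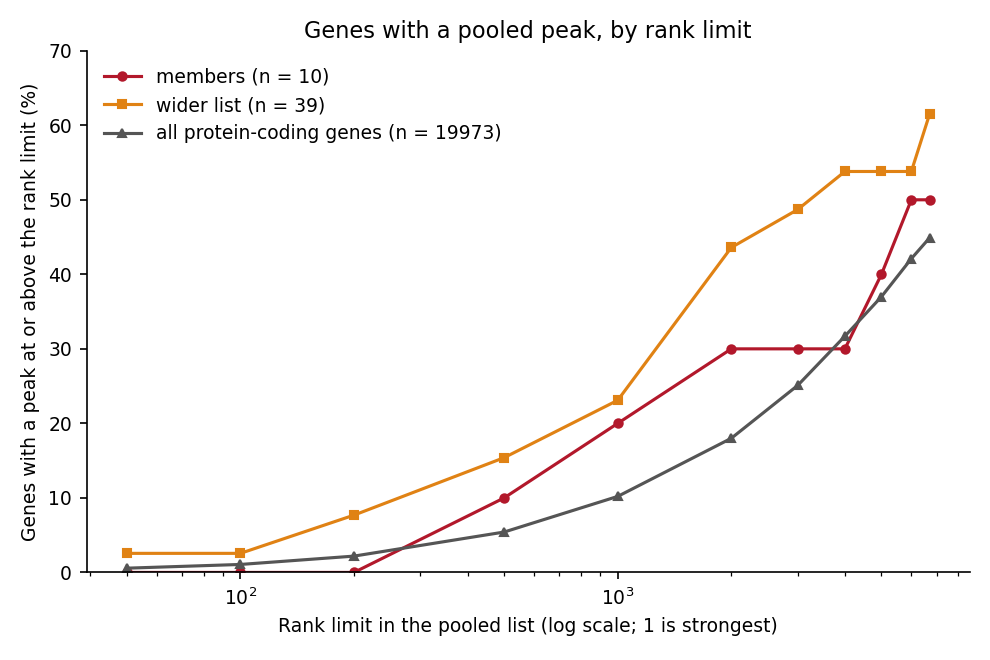
Share of genes with a peak (%) against the rank limit in the pooled list (log scale), for the 10 Wnt and Hox genes (members), a wider list of 39 pathway genes and all 19973 protein-coding genes. The 10 genes have no peak among the 200 strongest, where all genes reach 2.19%. They reach 20% at rank 1000, against 10.2% of all genes, and 50% at the end of the list, against 44.9%.

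Of the 6 Wnt pathway genes, 4 had a pooled peak, 2 of them among the 1000 strongest and 1 of them in both replicates. Of the 4 Hox genes only lin-39 had a pooled peak, and none had one among the 1000 strongest or in both replicates. Over all genes the shares were 44.9%, 10.2% and 5.60%, so with 4 genes a count of 0 at the stricter levels is no result about the Hox genes. The difference between the families was not tested. The search window had a median of 10007 bp at the 10 genes and 10001 bp over all genes, and per 10 kb of window they had 0.617 and 0.696 peaks.

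mom-2 encodes a Wnt ligand needed for the polarity of the endomesoderm precursor in the early embryo, and lies on chromosome V (8355988-8358185, plus strand, ce11). Its peak (V:8359122-8359525) had a signal of 7.35, rank 625 in the pooled list. It was found at rank 1303 with a signal of 2.90 in replicate 1, whose summit lay 23 bp from the pooled one. In replicate 2 it had rank 578 and a signal of 3.89, 9 bp from the pooled summit. It is the only one of the peaks at the 10 genes found in both replicates. It does not lie upstream of mom-2: its summit was 3336 bp downstream of the mom-2 start and 1139 bp past the 3′ end of the gene, outside protein-coding genes. The nearest protein-coding start was that of mpdu-1, a neighbouring gene, 161 bp away, with the summit on its upstream side. The assignment to mom-2 therefore rests on the distance rule, and which gene the site serves was not measured. The 201 bp around the summit were AT-rich, with 31.8% G and C.

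The second Wnt ligand, egl-20, directs the migration of Q neuroblast descendants and lies on chromosome IV (9812357-9815532, minus strand). It had no pooled peak in its window. The nearest pooled summit lay 8619 bp beyond its 3′ end, with rank 1408 and a signal of 4.96. lin-17, a Frizzled receptor that acts in asymmetric cell divisions, lies on chromosome I (2706883-2717549, plus strand) and was also without a peak, although its window of 15667 bp was the longest among the 10. The nearest pooled summit lay 10144 bp beyond its 3′ end, with rank 1221 and a signal of 5.38.

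mig-5 encodes one of the C. elegans Dishevelled proteins, which relay the signal from Frizzled, and lies on chromosome II (8182323-8185023, minus strand). Its peak (II:8184870-8185273) was the strongest at the 10 genes, with a signal of 8.44 and rank 454. The summit lay 49 bp upstream of the mig-5 start, in a short intergenic stretch. The stretch is shared with cct-1, a chaperonin subunit gene that is transcribed the other way and starts 371 bp from the summit; cct-1 was named after its position was seen. In replicate 1 the peak stood at rank 115 with a signal of 7.97 and the same summit base. In replicate 2 there was no summit within 200 bp, and the nearest lay 14698 bp away. The strongest peak of the 10 genes was thus listed in 1 of the 2 replicates. Its 201 bp held 30.8% G and C and no match to the 8-base sequence.

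bar-1 encodes the β-catenin of the canonical pathway and lies on the X chromosome (7166005-7170625, minus strand). Its peak (X:7172562-7172965) was 2139 bp upstream of the start and weak, with a signal of 2.78 and rank 4089, a rank tied among 199 peaks. Neither replicate list had a summit within 200 bp: the nearest lay 9026 bp away in replicate 1 and 41696 bp away in replicate 2. pop-1 encodes the only TCF factor of the worm and lies on chromosome I (2822243-2830311, minus strand). Its peak (I:2828629-2829032) lay in an intron, 1480 bp downstream of the start, with a signal of 2.19 and rank 5882, tied among 171 peaks. It too was in neither replicate list, and the nearest summits lay 40620 bp away in replicate 1 and 32584 bp away in replicate 2. Both candidates thus rest on the pooled list alone. The deposited −log10 q-value was 0.77 at bar-1 and 0.36 at pop-1, against 3.20 at mig-5 and 3.20 at mom-2.

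**Figure D2:**
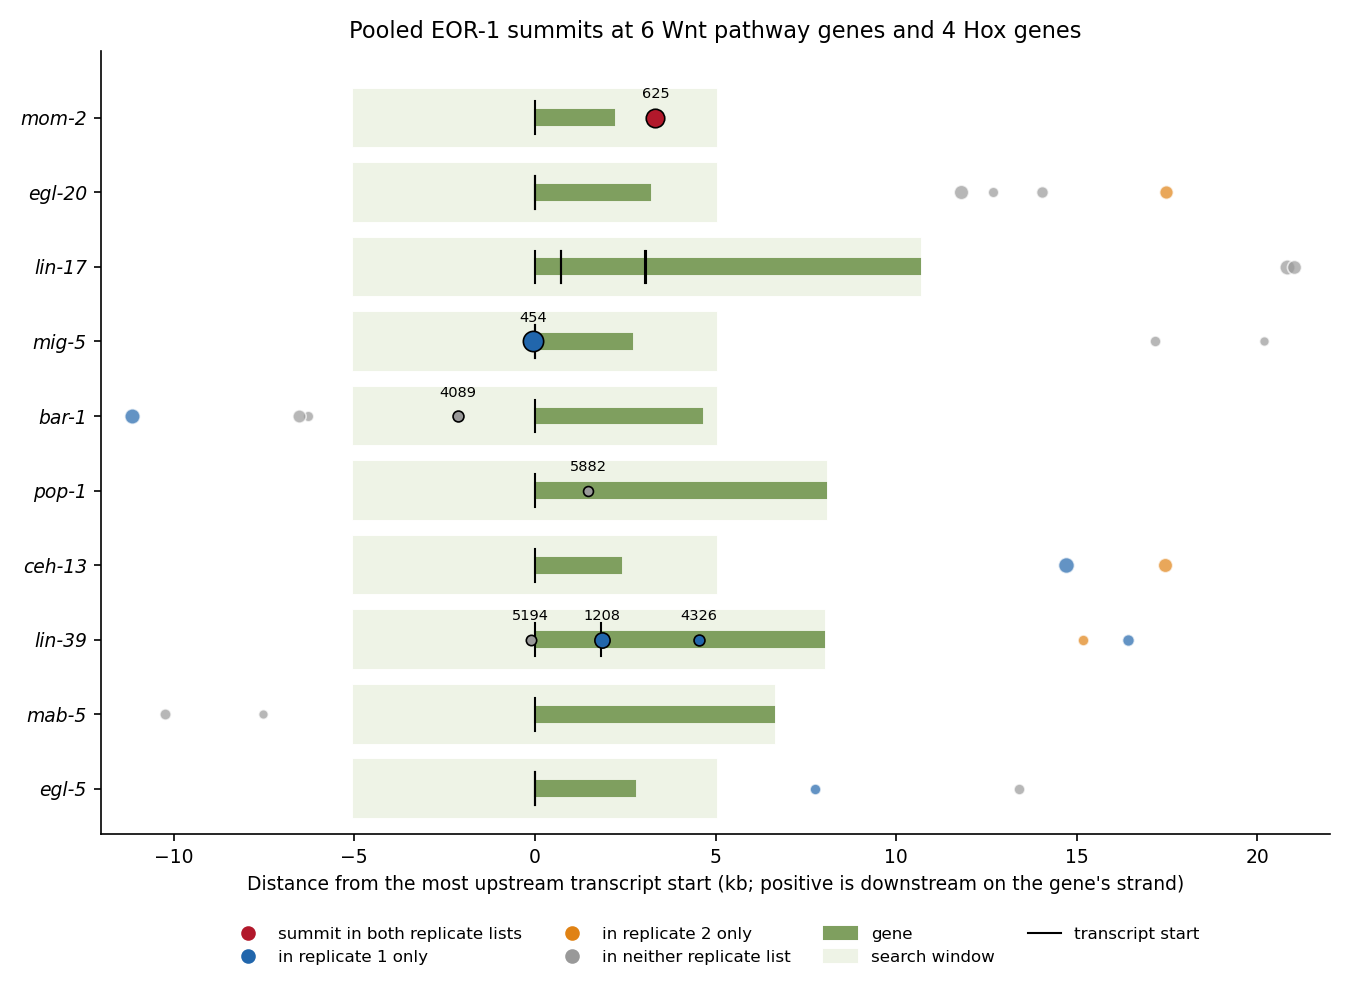
Positions of pooled summits (circles, larger with higher signal, coloured by whether a replicate list has a summit within 200 bp) relative to the most upstream transcript start of each of the 10 genes, in kb on the gene's strand. Outlined circles with a rank lie in the pale search window, green bars are genes and vertical ticks are transcript starts. mig-5 has rank 454 at its start, mom-2 has rank 625 past its 3′ end, and the windows of egl-20, lin-17, ceh-13, mab-5 and egl-5 are empty.

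The Hox genes give each body region its identity along the head to tail axis: ceh-13 (labial type) acts anteriorly, lin-39 (Deformed and Sex combs reduced type) in the midbody, mab-5 (Antennapedia type) behind it and egl-5 (Abdominal-B type) in the tail. lin-39, which the vulval precursor cells need, lies on chromosome III (7528641-7536632, minus strand) and had 3 pooled peaks. The strongest (III:7534568-7534971) had a signal of 5.41 and rank 1208, and its summit lay in the 5′ UTR, 35 bp downstream of the start of a shorter transcript. It was present in replicate 1 at rank 588 with a signal of 4.35, 4 bp from the pooled summit, and the nearest replicate 2 summit lay 13312 bp away. The next (III:7531900-7532303) lay in an intron 2703 bp downstream of that start, with a signal of 2.78, rank 4326 and rank 1487 in replicate 1. The last (III:7536545-7536948) lay 115 bp upstream of the first start, with a signal of 2.46, rank 5194 and no summit within 200 bp in either replicate list. Of the 3 peaks 2 were thus listed in replicate 1 and none in replicate 2.

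Within 100 bp of the summit, the weakest of the 3 lin-39 peaks held the only AGACGCAG match among the 7 peaks at the 10 genes. Within 200 bp all 3 lin-39 peaks held a match with at most 1 mismatch, and none of the other 4 peaks did. The share of all pooled peaks with a match within 200 bp was not computed, so this is no result about lin-39. The 3 lin-39 peaks were also richer in G and C within 100 bp of the summit, with 43.3 to 52.7% against 22.4 to 31.8% at the other 4. The match near the summit was exact and lay on the plus strand at III:7536708-7536715, 39 bp from the summit, and reads as its reverse complement on the lin-39 strand in the sequence given above. Starts of annotated noncoding RNA genes also lay within 200 bp of 2 lin-39 summits: C07H6.16 and C07H6.12 at the upstream peak and C07H6.18 at the intronic one. Which of these genes the candidates belong to cannot be told from position.

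The other 3 Hox genes of the cluster had no peak by the rule. ceh-13 (III:7555660-7558041, plus strand) had its nearest pooled summit 12315 bp beyond its 3′ end, at rank 1033 with a signal of 5.80. mab-5 (III:7776835-7783454, minus strand) had its nearest 7534 bp upstream, at rank 6699 with a signal of 2.05, the lowest signal of the pooled list. egl-5, which specifies the P12 cell and tail neurons, lies at III:7814374-7817141 on the plus strand. Its nearest pooled summit lay 4998 bp beyond its 3′ end but 7765 bp from its start, outside the rule, with rank 4089 and a signal of 2.78, and replicate 1 had a summit there at rank 1368. No replicate list had a summit in the windows of egl-20, lin-17, ceh-13, mab-5 or egl-5.

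Across the Hox cluster as a whole (III:7528641-7817141, 289 kb, with 39 other protein-coding genes) there were 20 pooled peaks. That is 6.93 per 100 kb, against 7.62 over chromosome III and 6.69 over the genome. Of the 20, 4 were among the 1000 strongest (1.39 per 100 kb, against 1.30 and 1.00) and 1 was in both replicates (0.35 per 100 kb, against 0.75 and 0.52). The list of replicate 1 had 13 peaks there and that of replicate 2 had 6, and no thresholded peak fell in the cluster. The 219 kb between ceh-13 and mab-5, which hold 38 other genes, make up 75.8% of the cluster's length and had 15 of the 20 peaks (75%) and all 4 of the strong ones. The highest was at rank 267 with a signal of 10.40, in an intron of ncl-1, a TRIM-NHL gene that limits nucleolar size and was named after its value was seen; it lay 55.8 kb from mab-5. The 19027 bp between lin-39 and ceh-13 held 1 peak, the one upstream of lin-39, and the 30.9 kb between mab-5 and egl-5 held 2, the better at rank 3598.

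**Figure D3:**
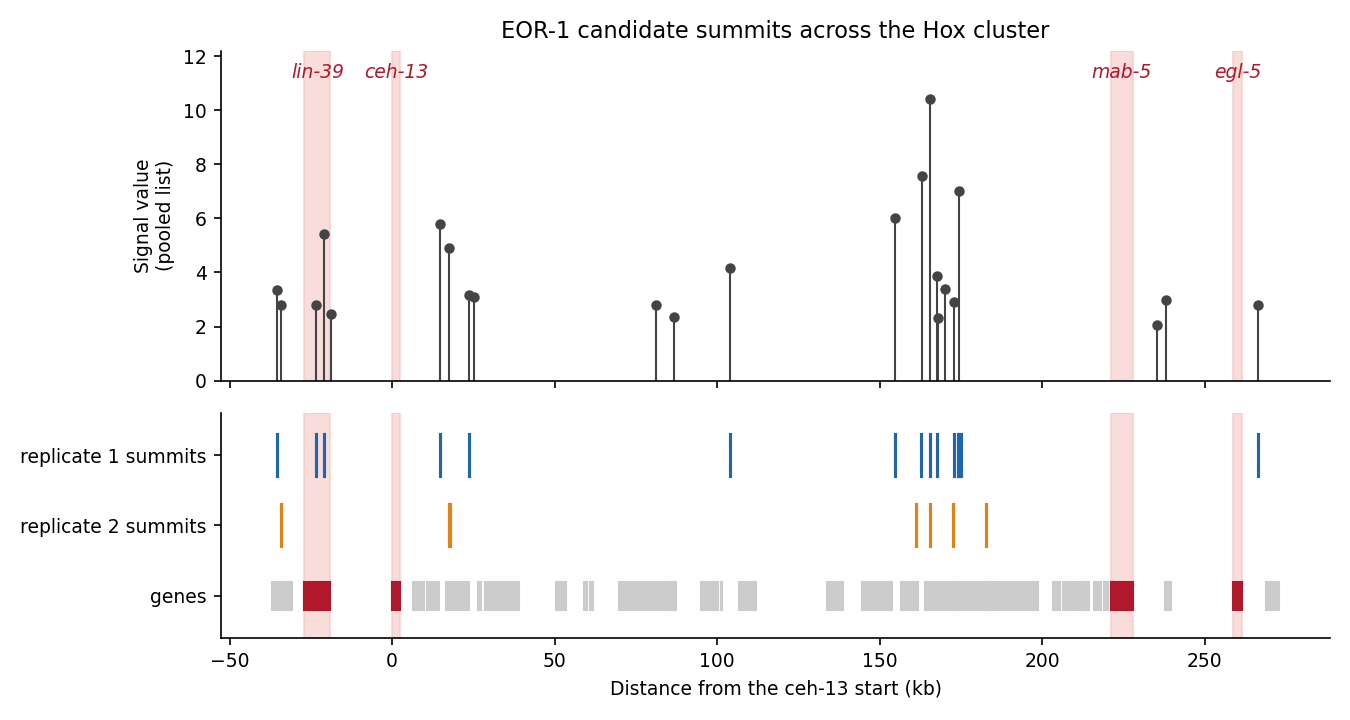
Signal value of each pooled summit across the Hox cluster and its flanks (top) and the summits of replicate 1 and replicate 2 with the genes (bottom), against distance from the ceh-13 start in kb. Hox genes are red bands and other protein-coding genes grey bars. The highest summits, up to a signal of 10.40, lie between ceh-13 and mab-5, and the bands of ceh-13, mab-5 and egl-5 hold none.

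The 7 peaks at the 10 genes had a median rank of 4089 and a median signal of 2.78, against 3263 and 3.10 over all 6708 pooled peaks. Among the 1000 strongest were 2 of the 7 (28.6%), against 14.9% of all pooled peaks. Signal ran from 2.19 at pop-1 to 8.44 at mig-5, all below 19.35, the lowest signal of the 33 thresholded peaks. The nearest thresholded peak to any of the 10 genes lay 227 kb away, from egl-5, and the farthest was 3475 kb, from egl-20. Replicate support was found for 4 of the 7 peaks: 1 in both replicates (14.3%, against 7.80% of all pooled peaks), 3 in replicate 1 only (42.9%, against 23.4%) and 0 in replicate 2 only (against 20.6%). The other 3 were in neither list (42.9%, against 48.2%). Their own gene's start was the nearest protein-coding start for 6 of the 7, with mom-2 the exception, and 3 lay within 200 bp of it.

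By place, 4 of the 7 were intergenic (57.1%, against 49.7% of all pooled peaks), 2 intronic (28.6%, against 29.1%) and 1 in a 5′ UTR (14.3%, against 3.74%). AGACGCAG with at most 1 mismatch lay within 100 bp of 1 of the 7 summits (14.3%, against 19.9% of all pooled summits), and exactly in the same 1 (14.3%, against 7.13%). The exact sequence GAGAGA on either strand was at 0 of the 7, which allows up to 42.9%, against 26.9% of all pooled summits. G and C made up a median of 31.8% of the 201 bp, with a range of 22.4% at pop-1 to 52.7% at the upstream lin-39 peak, against a median of 40.3% over all pooled peaks. These shares rest on 7 peaks and were not tested.

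A wider list of 39 Wnt and Hox pathway genes, picked by function with earlier results of these data known, gives the setting. Of these, 24 had a pooled peak (61.5%, 44.6 to 76.6%, against 44.9% of all genes). One of the 1000 strongest lay at 9 (23.1%, 11.1 to 39.3%, against 10.2%) and a peak in both replicates at 4 (10.3%, 2.87 to 24.2%, against 5.60%). A thresholded peak lay at 1 (2.56%, 0.0649 to 13.5%, against 0.350%). The median window of the 39 genes was 10710 bp, against 10001 bp for all genes, with the longest at 27414 bp. Over all genes, those with windows of 10001 to 12000 bp had a peak in 42.5%, and those with windows of 15001 bp or more in 67.2%. The part of window length in the wider list's shares was not tested.

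Counted by role over the 10 genes and the wider list together, 1 of the 5 Wnt ligands had a peak (mom-2), as did 4 of the 7 receptors and extracellular inhibitors, all 3 Dishevelled genes, 3 of the 4 β-catenins and the TCF gene. Of the 5 genes of the destruction complex 4 had a peak, and of the 3 genes for Wnt secretion 2. A peak was also found at 2 of the 3 genes of the asymmetry kinase branch and 1 of the 3 planar polarity genes. It was found at 1 of the 6 Hox genes, 3 of the 4 Hox cofactor genes and 4 of the 5 Hox repressor genes. Over all genes the share was 44.9% for any peak and 10.2% for the 1000 strongest, and no role was tested against it. The median window was 10814 bp at the Hox genes, 11276 bp at the cofactor genes and 11041 bp at the repressor genes. It was longer at the receptors and inhibitors (13888 bp), the planar polarity genes (13366 bp) and the TCF gene (13069 bp). Of all genes with windows of 12001 to 15000 bp, 55.6% had a peak. Among the 1000 strongest pooled peaks were peaks at 3 Hox repressors and 2 destruction complex genes. They were also at 1 gene each of the ligands, secretion, receptors, Dishevelled, asymmetry kinases and Hox cofactors, and at no β-catenin, TCF or Hox gene. Some of the counts of any peak rest on peaks in neither replicate list, as at bar-1 and pop-1.

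The strongest peak of the wider list was at mom-1, the worm Porcupine, which acylates Wnt ligands for secretion. It was the only thresholded peak at any of the 49 genes and the last of the 33 by signal (X:6296313-6296716, signal 19.35, rank 33). It stood at rank 33 with a signal of 12.30 in replicate 1 and at rank 197 with a signal of 5.89 in replicate 2. It lay in an intron of mom-1, 3403 bp downstream of the start, and held neither AGACGCAG nor GAGAGA within 100 bp. kin-19, the casein kinase 1α of the destruction complex, had a peak 1227 bp upstream (III:4087661-4088064) with a signal of 12.84 and rank 137. Its replicates were far apart in rank, with rank 1612 in replicate 1 and rank 36 in replicate 2. lit-1, the Nemo-like kinase that acts on POP-1 in asymmetric divisions, had 9 pooled peaks, the strongest at rank 776 with a signal of 6.62, 4054 bp upstream. Its replicate 2 summit lay 2 bp away, and its replicate 1 summit 199 bp away, just inside the 200 bp that count as shared and nearer to another pooled lit-1 peak (rank 2562, 31 bp). A further lit-1 peak, at rank 1373, had summits 59 bp away in replicate 1 and 98 bp away in replicate 2.

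gsk-3, the kinase that phosphorylates β-catenin, had a peak at rank 227 with a signal of 11.13. It lay 3181 bp upstream of gsk-3 in a coding exon of the neighbouring gene Y18D10A.4, whose start was 131 bp away. It was listed at rank 52 in replicate 1, and the nearest replicate 2 summit lay 282 bp away, outside the 200 bp. A second pooled peak at rank 2513 had a replicate 2 summit 69 bp away, at rank 1956. The peak at rank 227 held 2 exact matches to the 8-base sequence and 4 matches to GAGAGA. mig-1, a Frizzled receptor, had a peak at rank 769 with a signal of 6.62, 4237 bp upstream, at rank 204 in replicate 1, and the nearest replicate 2 summit lay 506 bp away.

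Among the 5 Hox repressors, sor-1, mes-6 and sop-2 had a peak among the 1000 strongest, mes-3 had its best at rank 1744 and mes-2 had none. sor-1, which keeps Hox genes off outside their domains, had a peak 478 bp upstream (III:8417488-8417891) at rank 138 with a signal of 12.82. It was found in both replicates, at rank 453 with a signal of 4.85 in replicate 1 and at rank 88 with a signal of 7.53 in replicate 2. mes-6, the worm ESC of the Polycomb repressive complex, had one at rank 229 with a signal of 11.09 (IV:8510482-8510885), 600 bp upstream. The start of the neighbouring gene tag-77 was nearer, 136 bp from the summit. The peak was at rank 81 in replicate 1 and absent from replicate 2, and held 2 exact matches to the 8-base sequence, shown in capitals above. sop-2, a Polycomb-like regulator, had a peak 565 bp upstream at rank 595 with a signal of 7.53, at rank 264 in replicate 2 and absent from replicate 1. unc-62, the Meis-type Hox cofactor, had a peak in its 5′ UTR at rank 309 with a signal of 9.86, at rank 120 in replicate 1 and absent from replicate 2. These genes were named by a rule on rank and replicate support, so their ranks are a description.

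**Figure D4:**
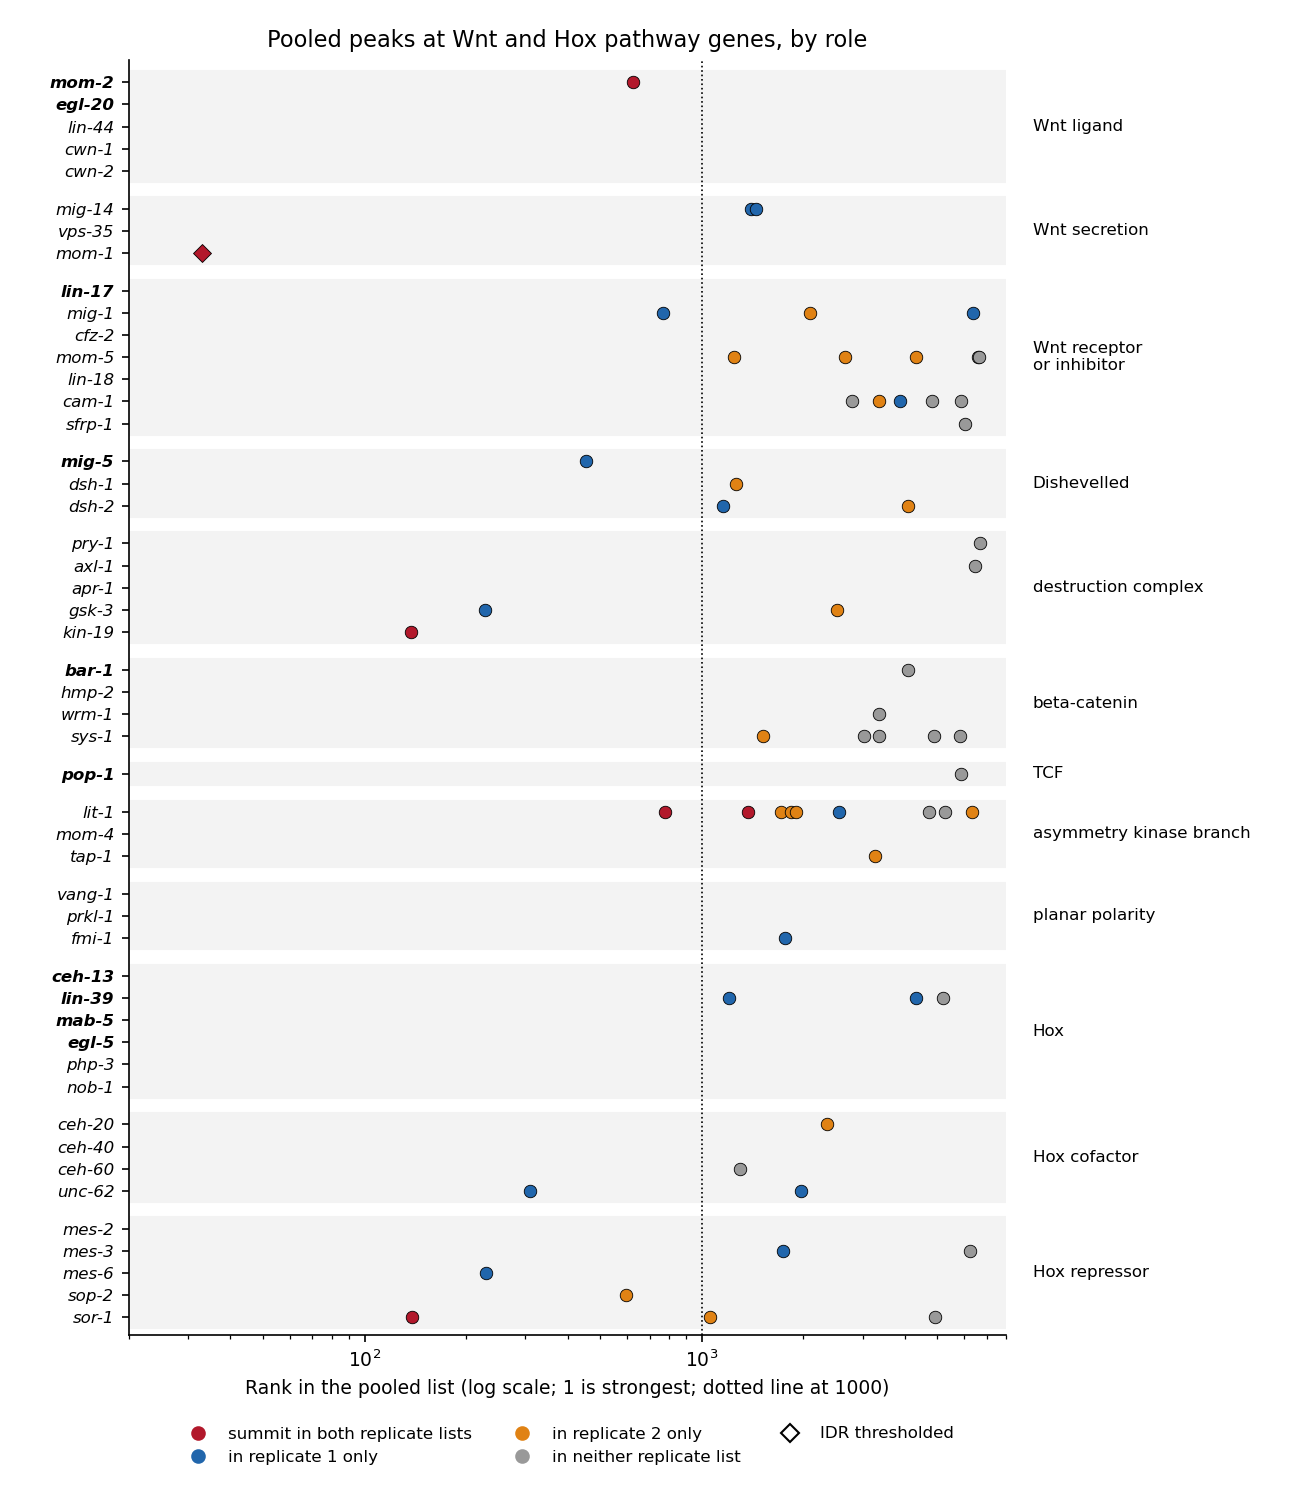
Rank in the pooled list (log scale) of every peak at the 10 genes (bold) and the 39 wider-list genes, grouped by role, with colour for replicate support, a diamond for a thresholded peak and a dotted line at rank 1000. The Hox row holds only the 3 lin-39 peaks, the best at rank 1208, and the Wnt secretion row holds the diamond of mom-1 at rank 33.

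The features of the wider list's 53 peaks can be set beside those of the 7. The 8-base sequence with at most 1 mismatch was at 18 of the 53 (34.0%, against 19.9% of all pooled peaks) and the exact sequence at 9 (17.0%, against 7.13%). GAGAGA was also at 18 (34.0%, against 26.9%). Their median rank was 2513, against 3263 over all pooled peaks, and median G and C 41.8%, against 40.3%. The 8-base sequence was picked from strong against weak peaks of these same data, so its shares are a description. The part of peak strength in them was not tested. Of the 53 peaks 5 were in both replicates, 13 in replicate 1 only, 17 in replicate 2 only and 18 in neither. Besides these, 8 summits of a single replicate without a pooled partner lay in the windows of lin-44, mig-1, lin-18, cam-1, pry-1, vang-1 and unc-62, and none in the windows of the 10 genes. No such count was made over all protein-coding genes, so neither number is a result about the genes.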

How the data were processed

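The authors deposited narrowPeak lists from 2 ChIP-seq replicates. Peaks were called on ce11 against control data, in each replicate alone and in both pooled, and IDR made the thresholded list from these 3, per the deposited file lists. Not given in the sources used here are the aligner, caller, filters and IDR threshold. The deposited signal value ranks peaks within a list only, with ties given the lowest rank, and its normalization is not given. The deposited −log10 q-value was copied and not used for ranking. The ce10 lists were not used.

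Genes came from Ensembl release 115 and sequences from the RefSeq assembly WBcel235, which is ce11. Coordinates are 1-based. Summits were placed with Python 3.11.15 (scipy 1.17.1, numpy 2.4.6), in an exon (5′ UTR first, then coding, then 3′ UTR) before an intron, and as intergenic outside protein-coding genes. Summits within 200 bp were shared. Placement and matching were checked on simulated data. No p-value was computed.

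The 10 genes, the wider list, the 8-base sequence and the alternatives were chosen with earlier results of these data known. Named were the 10 genes, wider-list genes with a peak among the 1000 strongest or in both replicates, and neighbours whose start is nearer to a peak of the 10 genes than that of its gene. Other genes (cct-1, ncl-1, tag-77, Y18D10A.4, mes-2, mes-3, noncoding RNA genes and those with single-replicate summits) were named after their values were seen. Alternatives covered the distance, the peak set, each replicate alone, the shared distance and the match window.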

Additional observations from a re-analysis of the deposited data

How the results depend on the processing

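No paired analysis was possible because there is 1 group. Of 48 alternatives, 20 kept the count within 1.5 times and 28 did not. The 5 genes with a pooled peak became 3 with 1000 bp or 2000 bp to a start (mig-5, pop-1 and lin-39) and 7 with 10000 bp, which added mab-5 and egl-5. Leaving out a replicate gave 1 to 3: replicate 1 alone listed mom-2, mig-5 and lin-39, and replicate 2 alone mom-2. Peaks in both replicates gave 1, the 1000 strongest 2 and thresholded peaks 0, against 5.60%, 10.2% and 0.350% of all genes. For the other distances and for each replicate alone, the share over all genes was not computed. Those counts, here and below, are therefore no result about the genes. The 7 peaks became 11 with 10000 bp, 1 to 4 without a replicate, 1 in both replicates, 2 among the 1000 strongest and 0 thresholded. The wider list's 24 genes became 15 to 16 without a replicate, 4 in both, 9 among the 1000 strongest and 1 thresholded. The 2 genes with one of the 1000 strongest peaks became 1 with 1000 bp, 2000 bp or the 500 strongest, and 1 to 2 without a replicate. The 500 strongest lay at 5.42% of all genes. Rank 1000 is a looser cut in the replicate lists, which held 2488 and 2610 peaks against 6708 in the pooled list. The 1 gene with a peak in both replicates became 0 with 1000 bp or 2000 bp, since the mom-2 peak lies 3336 bp from its start. The 8-base sequence lay at 1 peak within 100 bp and at 3 within 200 bp, all at lin-39, with no share over all pooled peaks computed at 200 bp. The 20 peaks of the Hox cluster became 4 among the 1000 strongest, 1 in both and 6 to 13 without a replicate. Without read counts, whether an absent peak reflects depth cannot be told.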
